A study of Mus musculus with 56 samples.

Results

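Mitogen-activated protein (MAP) kinase cascade genes were followed through 56 lists of ChIP-seq peaks from mouse bone marrow-derived macrophages (BMDMs), covering 9 antibodies. The genes were chosen by name alone. A peak counted when the gene it was annotated to was called Mapk, Map2k, Map3k, Map4k, or Mapkapk followed by a digit. The rule took 47 of the 20352 genes named in the lists and 6856 of the 1610519 peaks. The 47 genes were 10 MAPKs, 7 MAP2Ks, 16 MAP3Ks, 5 MAP4Ks, 3 MAPK-activated protein kinases, and 6 genes that carry such a name without being kinases of the cascade. These 6 were the JNK scaffold genes *Mapk8ip1*, *Mapk8ip2*, and *Mapk8ip3*, together with *Mapk1ip1*, *Mapk1ip1l*, and *Map3k7cl*.

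In a MAP kinase cascade, a MAP3K phosphorylates a MAP2K, which in turn phosphorylates and activates a MAPK, and MAP4Ks can act at the top. The ERK branch runs through *Map2k1* and *Map2k2* to kinases such as *Mapk3*, the JNK branch through *Map2k4* and *Map2k7* to *Mapk8*, *Mapk9*, and *Mapk10*, and the p38 branch through *Map2k3* and *Map2k6* to *Mapk14*, *Mapk11*, and *Mapk13*. In macrophages, Toll-like receptors engage these branches through TAK1 (encoded by *Map3k7*) and TPL2 (encoded by *Map3k8*), and the p38 target MK2 (encoded by *Mapkapk2*) is known for controlling the stability of cytokine mRNAs.

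All cells came from wild-type C57BL/6 mice aged 8 to 12 weeks and were differentiated for 6 days with L929 supernatant as the source of M-CSF, so no sample carried a deletion or a transgene. In the first experiment, BMDMs were left untreated or received 20 ng/ml IL-4 for 1 hr, with 2 samples per group for RNAPII-pS5 (initiating RNA polymerase II), RNAPII-pS2 (elongating RNA polymerase II), H3K27Ac (a mark of active enhancers and promoters), the lineage factor PU.1, the acetyltransferase p300, and the deacetylases HDAC1, HDAC2, and HDAC3. In the second experiment, RNAPII-pS5, RNAPII-pS2, and the NF-κB subunit p65 were followed in 4 groups of 2 samples. The cells were untreated (ctrl/ctrl), pretreated with IL-4 for 24 hr (IL-4 PT/ctrl), given LPS (100 ng/ml per the labels, while the study's methods give a molar dose), a bacterial ligand of Toll-like receptor 4, for 1 hr (ctrl/LPS), or given both in that order (IL-4 PT/LPS). The question was how IL-4 alone, and IL-4 given before LPS, changes the chromatin of macrophages. These are bulk cultures, so a change in the share of cells bound and a change in binding per cell cannot be told apart.

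Lists held between 8440 and 71027 peaks, of which 0.358% to 0.526% were named for the 47 genes, and between 18 and 43 of the 47 genes were named per list. The deposited score of a peak is a −log10 of a p- or q-value for all antibodies except H3K27Ac, whose regions carry normalized tags. Sequencing depth is unknown, so list length is given in its place. Some lists stood apart. The p300 list of untreated replicate 1 held 44787 peaks against 66710 to 69360 in the other 3, the p65 lists held 9556 to 11026 peaks without LPS and 26305 to 38955 with it, and RNAPII-pS5 lists held 14476 to 22149 peaks in the LPS experiment and 30420 to 35424 in the 1 hr experiment. For RNAPII-pS2 after 1 hr, all 4 lists had peak names with the treatment opposite to their label. The IL-4 target *Cish* had RNAPII-pS2 scores of 39.19 and 54.57 in the lists labelled untreated and no peak in those labelled IL-4 (log2 difference −4.66, limma adjusted p = 0.0484), so the direction of that comparison is given by label only. Of the other checks, H3K27Ac at *Arg1*, *Cish*, and *Socs1* was higher with IL-4 by 1.45, 2.51, and 1.94 on the log2 scale, and RNAPII-pS2 at *Tnf* went from 42.64 and 37.54 in ctrl/ctrl to 65.13 and 69.26 in ctrl/LPS. Against the label, RNAPII-pS2 at *Il1b* was lower with LPS (−3.94, adjusted p = 0.00112), since no peak bore its name there, and centred p65 at *Nfkbia* was lower (−1.01, adjusted p = 0.0137). Of 9 macrophage marker genes, 4 had an H3K27Ac region in every list and 4 in none. Of markers of other cells, 1 of 4 T cell, 1 of 3 B cell, and 1 of 4 neutrophil genes had a region in every list, and 0 of 3 epithelial and 0 of 3 fibroblast genes had any. The summed tags were 168.0 and 171.0 untreated and 156.0 and 158.0 with IL-4 for T cells, 441.0 and 429.0 and then 324.0 and 326.0 for B cells, and 41.1 to 60.9 in all for neutrophils, and their part in the results below was not tested.

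For each gene the strongest peak named for it and not called intergenic was taken, and for each region the strongest peak within merged overlapping peaks. Values were put on a log2 scale, centred per sample, and compared with limma. Differences below are log2 ± SE with n = 2 samples per group, and a gene or region was called at a Benjamini-Hochberg adjusted p of at most 0.05 over all genes or regions tested. A missing peak took a common floor, so a fitted difference against a group without peaks depends on that floor and is not a bound. Called genes and regions were picked by these same values, so groups that lie apart in them are no further support. Peaks carry the name of the gene with the nearest start site, which need not be the gene they act on.

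Most of the cascade was marked in BMDMs. *Mapkapk3*, which encodes the p38 target MK3, had a peak in all 56 lists, and *Map3k5* (ASK1), *Map3k7cl*, and *Mapkapk2* each had one in 55. At the other end, *Map3k10*, *Map4k5*, and *Mapk8ip1* were named in 4 lists, *Mapk10* (the JNK gene known for its expression in brain) in 9, *Mapk11* (p38β) in 11, and *Mapk3* (ERK1) in 13. These are counts of names, and a gene seldom named can still hold peaks. Over the whole gene span, RNAPII-pS5 was listed in every 1 hr sample at *Map3k10* (19.73 to 29.51) and *Map4k5* (7.44 to 10.79). At *Mapk8ip1* it was listed in all but untreated replicate 2 (2.89 to 3.24). By antibody, p300 had a peak at 45 of the 47 genes in at least 1 list and at 36 in all 4, and PU.1 at 42 and 33. HDAC3 had a peak at 23 genes in at least 1 list and at 10 in all 4, but the labels give the HDAC3 and H3K27Ac samples the same antibody catalogue number, so which antibody the HDAC3 lists stand for is uncertain. The study's resource list gives HDAC3 a catalogue number of its own, whereas its ChIP-seq methods repeat the H3K27Ac number. p65 had a peak at 38 genes in at least 1 of its 8 lists and at 11 in all 8. PU.1 peaks named for the cascade lay in introns in 55.5% of cases, against 42.1% of all PU.1 peaks, and in promoters in 3.68% against 5.27%. Promoters held 7.85% of the p300 peaks (11.5% of all p300 peaks) and 6.45% of the p65 peaks (10.8% of all).

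IL-4 for 1 hr changed p300 at a small set of the cascade's genes, and the share called (11.9%) was close to that of all genes. Of the 5 called, 3 were MAP3K genes, a role that makes up 16 of the 47 genes. Among 42 genes tested, 4 had higher and 1 had lower p300, or 5 called against 11.3% of all 13593 genes tested (6.9% higher and 4.41% lower), and the median difference was −0.18 for the cascade and 0.02 for all genes. Of all called genes 61% were higher, and 98% without centring, when untreated replicate 1 alone lay 1.2 below the common level. *Map3k12* encodes DLK, a MAP3K of the JNK branch. Its strongest p300 peak scored 16.67 and 37.43 in untreated and 261.31 and 252.85 in IL-4-treated BMDMs, a difference of 2.55 ± 0.18 (adjusted p = 0.00327). *Map3k8* scored 8.58 and 24.91 untreated and 131.57 and 127.51 with IL-4 (2.34 ± 0.15, adjusted p = 0.00324). Both genes were far above their untreated scores in each IL-4 sample. *Map3k3*, which encodes MEKK3, went from 20.11 and 60.87 to 105.11 and 108.86 (0.80 ± 0.13, adjusted p = 0.021). The groups did not overlap in these 3 genes, which were picked by these values. The IL-4 scores of *Map3k8* and *Map3k3* are of intronic regions without an untreated p300 peak. Their untreated scores are therefore of other peaks, and the differences are not changes at 1 site. Over the whole gene span *Map3k3* had a difference of −0.44, and with intergenic peaks kept *Map3k8* one of −0.38, since other peaks then set the value. *Map4k4* was called lower (−0.76 ± 0.16, adjusted p = 0.0398), although its scores of 27.21 and 73.84 untreated overlapped those of 42.79 and 50.43 with IL-4. Its difference was −0.71 (adjusted p = 0.0529) without untreated replicate 1 and 0.05 without centring. Leaving out untreated replicate 1 gave 8 called genes, 6 higher and 2 lower, in which *Map3k12*, *Map3k8*, and *Map3k3* remained called, and leaving out untreated replicate 2 gave 23.

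Near misses in p300 lay in both directions. The p38 target gene *Mapkapk3* scored 36.68 and 78.41 untreated and 147.6 and 171.61 with IL-4 (0.76, adjusted p = 0.0751), and *Map3k14*, which encodes the NF-κB-inducing kinase NIK, 32.91 and 87.25 and then 133.38 and 150.14 (0.59, adjusted p = 0.0619). The p38 activators *Map2k6* and *Map2k3* had differences of −0.74 (adjusted p = 0.0725) and −0.63 (adjusted p = 0.0823), and the JNK1 gene *Mapk8* −0.59 (adjusted p = 0.0842). *Mapkapk2* had a difference of 0.00 (adjusted p = 0.995). Of the 46 genes of a pathway list (adaptors, further kinases, feedback inhibitors, and nuclear targets of the cascade), 41 were tested in p300, of which 6 were higher and 3 lower. The feedback inhibitor gene *Spry1* differed by 5.74 and the transcription factor gene *Srf* by 1.91.

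Region by region, p300 gave 41 called of 296 merged regions named for the cascade (29 higher and 12 lower), against 14.1% of all 67229 regions, with 11.2% of all regions higher and 2.82% lower. By role, 17 of the 131 MAP3K regions, 4 of 48 MAPK regions, 4 of 19 MAPKAPK regions, 2 of 38 MAP2K regions, 1 of 39 MAP4K regions, and 1 of 21 regions of the remaining genes were higher, and lower regions were 6, 0, 0, 4, 2, and 0. Of the 29 higher regions, 17 had no p300 peak in either untreated sample. The 5 with the largest differences were an intronic region of *Map3k8* 1.6 kb from its start site, with scores of 131.57 and 127.51 in IL-4-treated BMDMs only, a region at the 3′ end of *Map3k12*, a region 33.2 kb upstream of *Mapk14* (115.25 and 110.77, IL-4 only), an intronic region of *Map3k3* 18.3 kb into the gene (105.11 and 108.86, IL-4 only), and a region 170.5 kb upstream of *Map3k1* (83.67 and 97.43, IL-4 only). Their adjusted p-values lay between 0.0127 and 0.0312. *Mapk14* encodes p38α, and *Map3k1* encodes MEKK1, a MAP3K of the JNK and ERK branches.

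The reference sequence (GRCm38, mm10, plus strand) at the centres of 3 of these IL-4-dependent p300 regions is shown because each holds a 10-base match to the STAT6 motif, and STAT6 is the factor that IL-4 activates. Matches to the STAT6 motif (TTC, any 4 bases, then GAA; the same on both strands) and to the NF-κB motif are in capitals. The *Map3k3* window, chr11:106103037-106103336, lies in intron 2 of 15. The *Mapk14* window, chr17:28657970-28658269, is intergenic in the deposited annotation and lies inside the span of *Slc26a8* in GENCODE. The *Map3k1* window is chr13:111979341-111979640.
Map3k3 intron: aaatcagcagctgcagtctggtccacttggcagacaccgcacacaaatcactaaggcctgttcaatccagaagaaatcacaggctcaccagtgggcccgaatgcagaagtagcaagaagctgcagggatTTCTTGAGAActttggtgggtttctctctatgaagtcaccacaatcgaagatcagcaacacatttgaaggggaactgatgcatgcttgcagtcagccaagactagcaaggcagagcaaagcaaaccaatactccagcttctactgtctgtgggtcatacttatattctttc
Mapk14 upstream: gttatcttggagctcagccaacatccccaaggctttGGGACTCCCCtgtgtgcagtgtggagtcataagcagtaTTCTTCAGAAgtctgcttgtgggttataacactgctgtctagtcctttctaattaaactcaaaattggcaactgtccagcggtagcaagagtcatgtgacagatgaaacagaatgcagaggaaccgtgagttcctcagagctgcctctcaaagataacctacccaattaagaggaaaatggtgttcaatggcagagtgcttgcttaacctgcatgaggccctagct
Map3k1 upstream: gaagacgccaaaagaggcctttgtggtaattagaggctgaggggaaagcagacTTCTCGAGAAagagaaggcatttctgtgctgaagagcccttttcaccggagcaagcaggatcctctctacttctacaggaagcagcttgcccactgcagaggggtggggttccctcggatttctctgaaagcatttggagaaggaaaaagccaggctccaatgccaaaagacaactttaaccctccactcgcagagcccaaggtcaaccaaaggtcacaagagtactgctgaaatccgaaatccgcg
The match runs from base 130 to 139 in the *Map3k3* window, from 75 to 84 in the *Mapk14* window, and from 54 to 63 in the *Map3k1* window, and the *Mapk14* window also holds an NF-κB match at bases 37 to 46. Over the 300 bases at the centre of each region, 15 of the 29 higher cascade regions held a STAT6 match (51.7%) and 0 of the 12 lower ones did. The same count was 49.5% over all 7561 regions with higher p300, 2.69% over all 1897 regions with lower p300, 12.8% over all 81224 merged p300 regions, and 12.1% over the 348 cascade regions among them, so the higher regions of the cascade held the match about as often as other higher regions. The PU.1 letters (GAGGAAG, both strands) were found in 41.4% of the higher and 41.7% of the lower cascade regions, against 28.2% of all. The AP-1 letters (TGANTCA, both strands) were found in 13.8% of the higher and 25.0% of the lower cascade regions, against 17.8% and 39.4% of all higher and lower regions. The region at the 3′ end of *Map3k12*, 18 kb from its start site, held both an AP-1 and a STAT6 match, whereas the *Map3k8* region held an AP-1 match only. A match is a description of the letters and no evidence of binding.

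**Figure D1:**
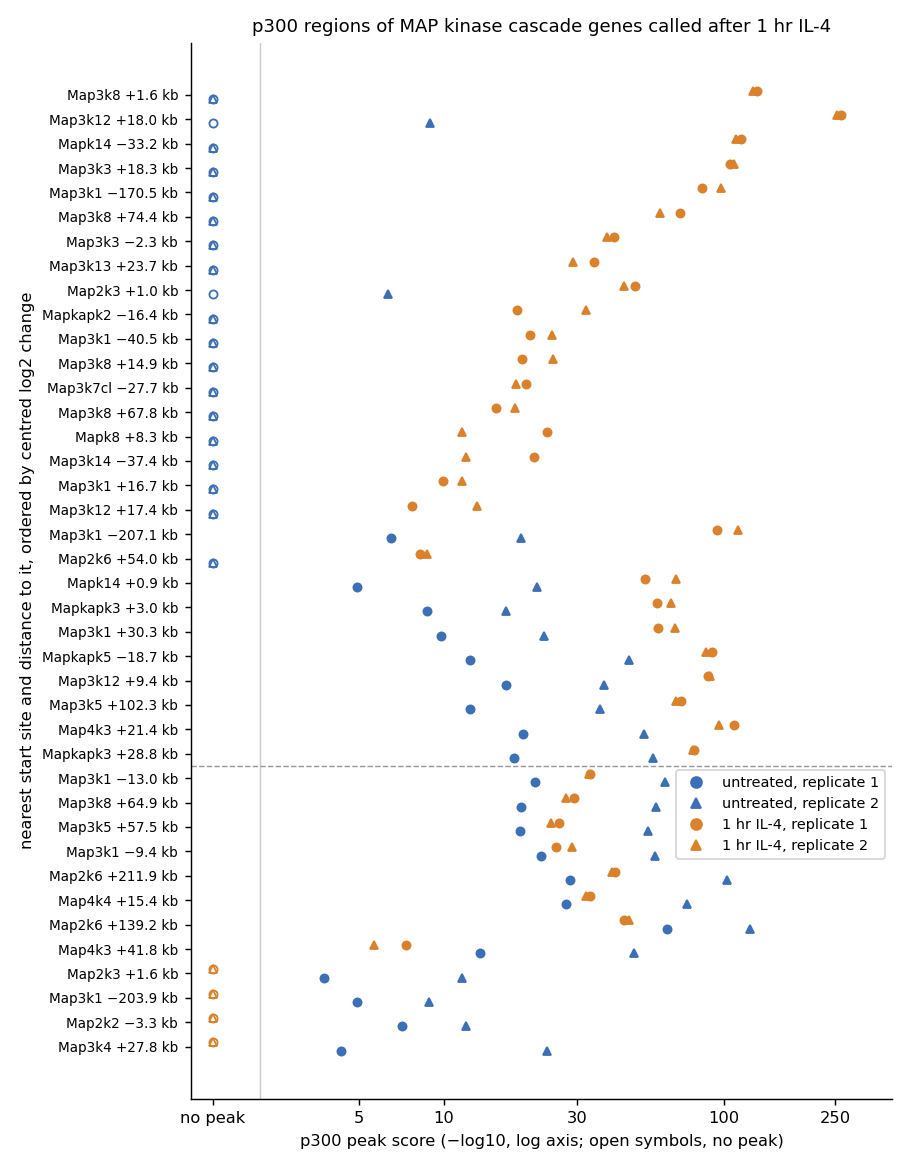
p300 scores (−log10 scale of the peak caller, log axis) of 40 of the 41 called regions named for MAP kinase cascade genes in untreated and IL-4-treated BMDMs, with circles for replicate 1, triangles for replicate 2, and open symbols where a list had no peak. The higher regions include 17 without an untreated peak, and among the 12 lower regions the untreated scores of replicate 1 lie below those of replicate 2.

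Other p300 regions moved in each direction within single genes. *Map3k1* had 5 higher and 3 lower of 30 regions, *Map3k8* 4 higher and 1 lower of 15, *Map3k12* 3 higher of 6, and *Map2k6* 1 higher and 2 lower of 21, whereas 0 of 15 regions of *Map3k7* and 0 of 11 regions of *Map3k9* were called. A region 207.1 kb upstream of *Map3k1* went from 6.46 and 18.85 untreated to 94.84 and 112.39 with IL-4 (2.56 ± 0.16, adjusted p = 0.0131). Regions of 2 p38 pathway genes were also higher: one 0.9 kb downstream of the *Mapk14* start site went from 4.91 and 21.56 to 52.15 and 67.53, and one 3.0 kb downstream of the *Mapkapk3* start site from 8.68 and 16.64 to 57.62 and 64.61. In the other direction, a region 139.2 kb downstream of the *Map2k6* start site went from 62.79 and 124.04 to 43.99 and 45.94 (−1.64 ± 0.26, adjusted p = 0.0379) and one 41.8 kb downstream of the *Map4k3* start site from 13.44 and 47.76 to 7.34 and 5.64 (−2.65, adjusted p = 0.0266). Those untreated scores lay above the IL-4 scores, but in 6 of the 12 lower regions the raw scores of the groups overlapped. The number of called regions was 64 without untreated replicate 1, 149 without untreated replicate 2, and 22 or 21 without an IL-4 replicate. Without centring no region was called.

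H3K27Ac rose at some genes of the cascade and fell at others after 1 hr of IL-4, and its log2 differences are of normalized tags, so their size cannot be set beside that of the p300 scores. Of 39 genes tested, 5 were higher and 8 lower after 1 hr of IL-4, or 13 called against 31.8% of all 11362 genes (14.6% higher and 17.2% lower), so the share called was close to that of all genes. The median difference was 0.04, against 0.01 over all genes. The higher genes included *Mapk14*, 2 MAP3Ks (*Map3k12*, *Map3k3*), and *Mapkapk3*. The lower genes were 2 MAPKs (*Mapk3*, *Mapk6*), 2 MAP2Ks (*Map2k3*, *Map2k6*), 3 MAP3Ks (*Map3k9*, *Map3k5*, *Map3k6*), and *Map4k4*. In all 13 genes, which were picked by these same values, the untreated and the IL-4 samples did not overlap.

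**Figure D2:**
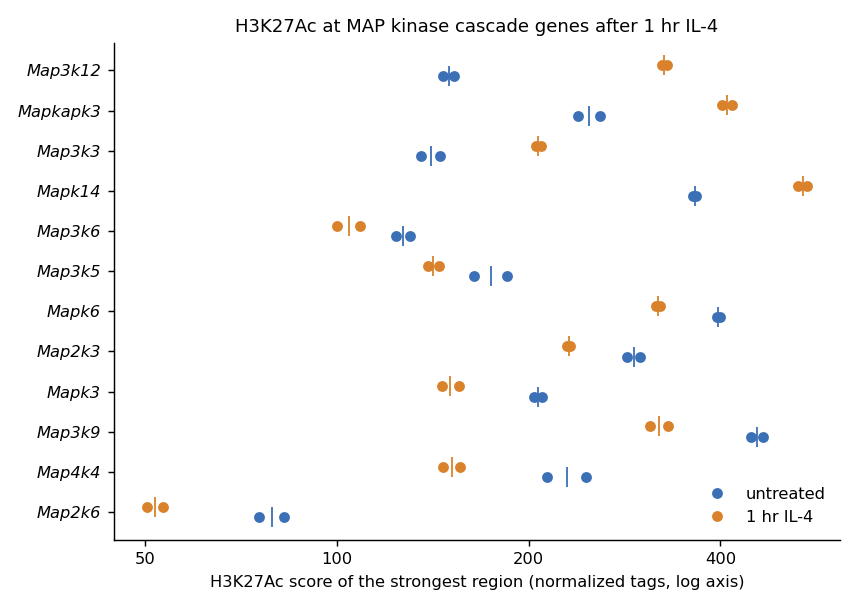
H3K27Ac of 12 of the 13 called MAP kinase cascade genes as normalized tags of the strongest region (log axis), with a point for each sample and a tick for each group mean. Untreated and IL-4-treated samples are apart in all 12, which were picked by these values, and *Map3k12* shows the widest gap (152.9 and 146.8 against 330.1 and 323.5 tags).

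*Map3k12* had 152.9 and 146.8 normalized tags untreated and 330.1 and 323.5 with IL-4, a difference of 1.11 ± 0.04 (adjusted p = 0.000462). On the p38 branch, *Mapk14* had 362.8 and 366.8 tags untreated and 529.1 and 547.8 with IL-4 (0.55 ± 0.04, adjusted p = 0.00202), and *Mapkapk3* 259.1 and 239.0 and then 417.5 and 402.3 (0.70 ± 0.05, adjusted p = 0.00228). The strongest region of *Mapk14*, and that of *Map2k3*, was not the same one in untreated and IL-4-treated cells. *Map2k3* went from 299.3 and 285.2 to 229.5 and 232.6 (−0.35 ± 0.04, adjusted p = 0.00654), and *Map2k6* from 75.5 and 82.5 to 53.3 and 50.3 (−0.62 ± 0.09, adjusted p = 0.0132). On the ERK branch, *Mapk3* went from 210.0 and 204.0 to 155.3 and 146.1 (−0.47 ± 0.05, adjusted p = 0.00636).

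Among the MAP3K genes, *Map3k3* went from 135.7 and 145.0 to 208.9 and 205.5 tags (0.55 ± 0.06, adjusted p = 0.00635), though over the whole span of the gene, whatever the peak names, its difference was −0.19. *Map3k9*, which encodes the mixed lineage kinase MLK1, fell from 447.3 and 467.1 to 309.6 and 331.5 (−0.53 ± 0.05, adjusted p = 0.00559). *Map3k5*, the stress-activated ASK1 gene, had 184.8 and 164.0 untreated and 144.4 and 139.2 with IL-4 (−0.31 ± 0.07, adjusted p = 0.0384). Both lower genes kept their groups apart, *Map3k5* by the narrower gap. *Map3k6* went from 123.7 and 130.3 to 100.0 and 108.7 (−0.30 ± 0.08, adjusted p = 0.0494), *Map4k4* from 245.9 and 214.0 to 147.0 and 156.2 (−0.61 ± 0.08, adjusted p = 0.00957), and the atypical MAPK gene *Mapk6* (ERK3) from 394.8 and 399.0 to 316.9 and 322.1 (−0.33 ± 0.03, adjusted p = 0.00588). Several central genes did not pass the test. *Map3k8* had 214.6 and 210.3 tags untreated but 270.5 and 775.9 with IL-4 (1.09 ± 0.53, adjusted p = 0.199), where replicate 2 alone was far above the rest. *Map3k7* had 190.9 and 174.3 and then 207.3 and 228.4 (0.24, adjusted p = 0.0798). *Map3k1* (−0.20, adjusted p = 0.205), *Map2k1* (−0.09, adjusted p = 0.307), and *Mapkapk2* (0.09, adjusted p = 0.12) had small differences, and the JNK genes *Mapk8* (23.3 and 25.9, then 24.5 and 23.6) and *Mapk9* (15.0 and 21.6, then 19.5 and 25.7) had low tags that overlapped.

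Single H3K27Ac regions changed more than the gene values did. Of 124 regions named for the cascade, 24 were higher and 35 lower (59 called, against 43.3% of all 28929 regions, 20.5% higher and 22.8% lower). The raw tags of the groups were apart in all 59, which were picked by these values. Of these, 4 higher regions were not listed in untreated and 3 lower ones not in IL-4-treated cells. A region at the 3′ end of *Map3k12*, 18.6 kb from its start site and beside the p300 region described above, went from 26.1 and 23.1 to 238.4 and 228.1 tags (3.30 ± 0.09, adjusted p = 0.000207). It overlaps *Pcbp2* as well as the last exon of *Map3k12*. At this end of the gene p300 and H3K27Ac were higher together. The distal *Map2k6* region with less p300 went from 113.0 and 107.5 to 48.0 and 43.7 tags (−1.21 ± 0.08, adjusted p = 0.00203). All 5 regions of *Map3k9* were lower and all 3 of *Map3k3* higher, and *Map2k6* (3 of 7), *Map4k3* (3 of 8), and *Map4k4* (3 of 6) had lower regions. *Map3k1* had 1 higher and 4 lower of 13, and *Map3k8* 2 higher and 3 lower of 5.

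Promoters and distal regions of 1 gene could differ in direction. At *Map3k7* the promoter went from 190.9 and 174.3 to 207.3 and 228.4 tags (0.31, adjusted p = 0.0367), whereas a region 47.5 kb downstream of the start site went from 112.4 and 114.7 to 52.3 and 64.2 (−0.92). At *Mapk14* the promoter region was listed only with IL-4 (529.1 and 547.8), and the intronic region 17.2 kb downstream went from 362.8 and 366.8 to 253.6 and 244.7 (−0.50). The gene value of *Mapk14* therefore compares an intronic region in untreated cells with the promoter in IL-4-treated cells. At *Map2k3* the listed region was an intronic one 3.7 kb from the start site in untreated cells and the promoter in IL-4-treated cells. Of the pathway list, 39 genes were tested in H3K27Ac, of which 9 were higher and 10 lower. The stress-response gene *Gadd45g*, whose product binds MEKK4, differed by 4.19 ± 0.11 (adjusted p = 0.00017), and the feedback inhibitor genes *Spry1* and *Spry2* by 2.01 and −0.77.

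The remaining antibodies of the 1 hr experiment called no gene of the cascade with limma. For PU.1, 39 genes were tested and 6 had an unadjusted p under 0.05, against 1065 of all 11504 genes. After adjustment 0.0% of all genes were called. The counts were 2 of 40 for HDAC1 (914 of 10679 over all genes), 1 of 31 for HDAC2 (695 of 8243), and 3 of 19 for HDAC3 (729 of 4090). Each again had 0.0% of all genes called. For RNAPII-pS5, 6 of 38 had an unadjusted p under 0.05 (1468 of 11958 over all genes) and 0.343% of all genes were called. For RNAPII-pS2 the values were 5 of 27 (1414 of 8687 over all genes) and 0.0576%. The smallest adjusted p among the cascade's genes was 0.106 for RNAPII-pS5, at *Map3k8*, with scores of 18.64 and 9.65 untreated and 45.29 and 43.28 with IL-4 (1.72 ± 0.26). *Mapk6* had the next difference, from 58.59 and 37.87 to 17.23 and 18.98 (−1.39, adjusted p = 0.113). Neither gene had overlapping groups in these named peaks. Over the whole gene span *Map3k8* had 57.78 and 45.29 untreated and 45.29 and 43.28 with IL-4 (−0.22, limma adjusted p = 0.655). There *Mapk6* had 61.09 and 45.73 and then 46.91 and 43.82 (−0.23, limma adjusted p = 0.618). PU.1 at *Map3k8* was 17.53 and 19.99 and then 52.03 and 38.86 (0.88, adjusted p = 0.534). With a spread of this size between 2 samples, such a difference was not detectable over all genes. In RNAPII-pS2, *Map2k3* had 33.72 and 8.01 in the lists labelled untreated and no peak of its name in those labelled IL-4 (−3.17, adjusted p = 0.221). Over the whole gene span it had 33.72 and 36.12 and then 15.14 and 34.51 (−0.55, limma adjusted p = 0.458). The pathway list had 0 calls in these 6 comparisons.

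Several antibodies nevertheless listed peaks at the IL-4-dependent p300 regions, given here as scores without a test. At the *Map3k3* intron shown above, PU.1 had 4.82 and no peak untreated and 37.17 and 37.41 with IL-4, HDAC1 had 11.17 and 9.78, HDAC2 14.6 and 12.96, and RNAPII-pS5 3.71 and 4.34, the last 3 with IL-4 only. At the *Map3k8* intron, PU.1 (31.95 and 36.59), HDAC3 (11.16 and 3.47), and RNAPII-pS5 (9.25 and 12.97) were listed with IL-4 only. At the 3′ end of *Map3k12*, PU.1 (33.4 and 38.86), HDAC1 (4.96 and 3.72), HDAC2 (5.3 and 7.08), and RNAPII-pS5 (6.41 and 5.08) were listed with IL-4 only. PU.1, HDAC1, and RNAPII-pS5, each in samples of its own, were listed in both IL-4 samples at all 3 of these regions, whereas HDAC3 was not listed at the *Map3k3* intron. At the region upstream of *Map3k1* the IL-4 lists gave PU.1 9.19 and 5.14, HDAC2 5.02 and 4.82, HDAC3 7.82 and 8.08, and RNAPII-pS5 5.22 and 8.1. At the region upstream of *Mapk14* they gave PU.1 6.18 and 9.62, while HDAC1 (5.53) and RNAPII-pS5 (5.83) were listed in 1 of the 2 IL-4 samples. At the distal *Map2k6* region RNAPII-pS5 was 15.65 and 19.21 untreated and 8.89 and no peak with IL-4.

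**Figure D3:**
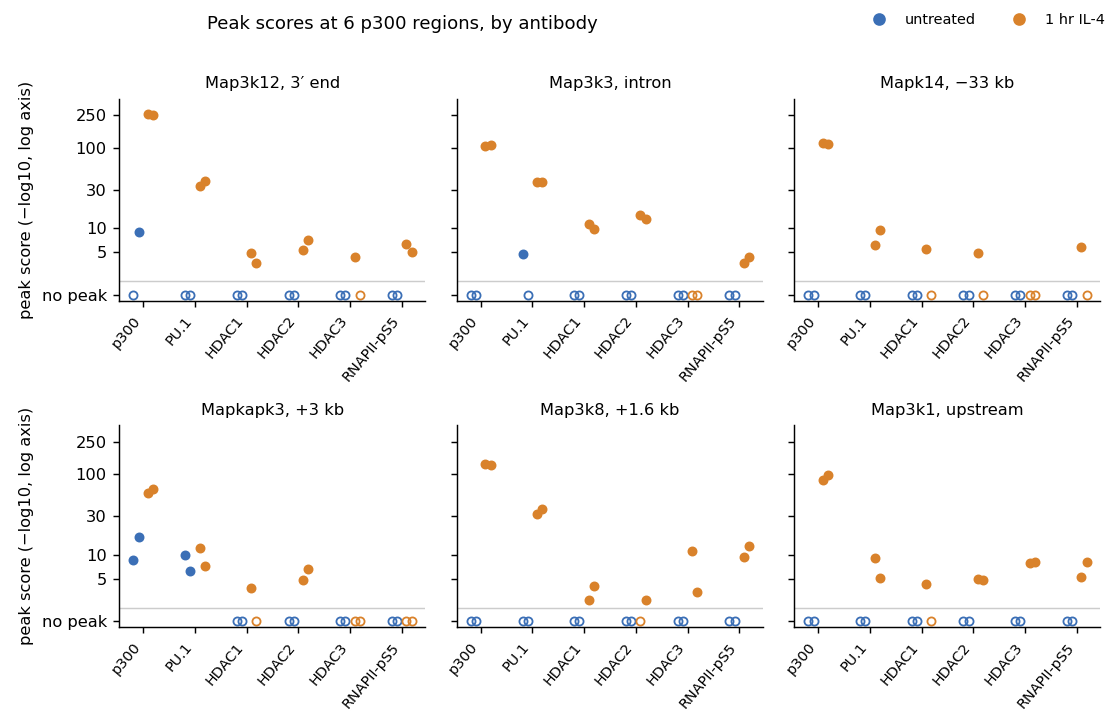
Scores of p300, PU.1, HDAC1, HDAC2, HDAC3, and RNAPII-pS5 (−log10 scale, log axis) at 6 p300 regions named for *Map3k12*, *Map3k3*, *Mapk14*, *Mapkapk3*, *Map3k8*, and *Map3k1*, with a symbol for each untreated and IL-4-treated sample. At the *Map3k3*, *Map3k8*, and *Map3k12* regions PU.1 reached 31.95 to 38.86 with IL-4, against no peak or 4.82 untreated.

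The next comparisons follow p65 through LPS and IL-4 pretreatment. The LPS, pretreatment, pretreatment under LPS, and interaction comparisons share samples, so their values are given side by side. LPS brought p65 to genes of the cascade that had none in ctrl/ctrl. Of 34 genes tested, 8 were higher and 1 lower in ctrl/LPS than in ctrl/ctrl (9 called, against 28.2% of all genes, 23.0% higher and 5.17% lower), with a median difference of 0.62 against 0.86 over all genes. Over all called genes 82% were higher, and 97% without centring, when 19 genes of the cascade were called. Shared peaks had higher scores after LPS, and centring took about 1.2 off the LPS difference of a gene with peaks in all 4 samples, whereas that of a gene without a ctrl/ctrl peak depends on the floor set after centring.

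The 8 genes with higher p65 were 2 MAP4Ks, 2 MAP3Ks, and 4 genes of other roles. *Map4k1*, the gene for the hematopoietic kinase HPK1, had no p65 peak in ctrl/ctrl and scores of 15.55 and 18.21 in ctrl/LPS (3.88 ± 0.26, adjusted p = 0.000915). *Map3k15* had none and then 21.3 and 19.14 (4.14 ± 0.30, adjusted p = 0.000957), and *Map3k4*, the MEKK4 gene, none and then 13.66 and 24.68 (4.0 ± 0.38, adjusted p = 0.00133). These 3 genes went from no listed peak to a peak in both samples. So did *Map4k4* (7.26 and 7.45), *Mapk8ip3* (7.46 and 8.64), the JNK activator gene *Map2k4* (16.46 and 7.41), and *Mapk11* (3.37 and 9.12). *Mapkapk2* was bound before LPS, with 9.82 and 13.27 and then 49.51 and 53.37 (0.95 ± 0.18, adjusted p = 0.0125), though with intergenic peaks kept the difference was −0.75. *Map4k2*, the germinal center kinase gene, was lower, with 33.05 and 25.88 in ctrl/ctrl and 20.4 and 16.02 in ctrl/LPS (−1.91 ± 0.23, adjusted p = 0.00252). *Mapk14* had 49.37 and 38.16 and then 66.08 and 63.7, a rise in raw score below that of the shared peaks (−0.64, adjusted p = 0.054). *Map2k3* (12.92 and 14.18, then 38.41 and 38.68; adjusted p = 0.175) and *Map3k5* (5.96 and 5.38, then 29.56 and 28.75; adjusted p = 0.248) had higher raw scores and did not pass the test either.

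IL-4 pretreatment by itself called 5 genes in p65, 2 higher and 3 lower, against 7.22% of all genes (4.4% higher and 2.82% lower). *Map4k1* had no peak in ctrl/ctrl and 13.86 and 10.32 in IL-4 PT/ctrl (4.8 ± 0.26, adjusted p = 0.00234), and *Map4k4* none and then 4.18 and 5.95. *Map3k8* (5.83 and 5.46, then none), *Map3k3* (6.02 and 6.37, then none), and *Mapk14* (49.37 and 38.16, then 20.46 and 15.7; −1.08 ± 0.18, adjusted p = 0.0243) were lower. With intergenic peaks kept *Map3k8* had a difference of 0.07 and over the gene span one of 0.23. Under LPS, pretreatment called 3 genes higher and 0 lower, against 12.1% of all genes (10.2% higher and 1.96% lower). *Map4k1* scored 15.55 and 18.21 in ctrl/LPS and 44.87 and 49.19 in IL-4 PT/LPS (1.23 ± 0.26, adjusted p = 0.0377), *Mapk10* none and then 10.02 and 6.81 (2.60 ± 0.25, adjusted p = 0.00206), and *Map3k12* none and then 3.47 and 6.7 (1.82 ± 0.30, adjusted p = 0.0158). *Mapk14* scored 74.26 and 73.15 in IL-4 PT/LPS and was not called. Without either ctrl/LPS sample 1 gene was called, and without either IL-4 PT/LPS sample 0 were.

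The response to LPS differed between pretreated and untreated cells in 5 genes by the interaction term, 3 higher and 2 lower, against 13.6% of all genes (9.41% higher and 4.21% lower). Of all called genes 69% were higher, and 85% without centring. *Map4k1* responded less after pretreatment (−3.57 ± 0.36, adjusted p = 0.00529), with the highest scores of any condition in IL-4 PT/LPS but with peaks already present in IL-4 PT/ctrl. *Map4k4* behaved likewise (−2.21 ± 0.47, adjusted p = 0.0341; 22.12 and 21.76 in IL-4 PT/LPS). *Mapk10*, *Map3k3*, and *Map3k8* responded more, by 2.60, 3.89, and 3.16. *Map3k3* had 6.34 and 9.41 in ctrl/LPS and 13.66 and 8.58 in IL-4 PT/LPS, and *Map3k8* 14.7 and 10.16 and then 9.91 and 13.09, so the LPS-treated samples of both genes overlapped and the term rested on the missing peaks in IL-4 PT/ctrl. Over the gene span their terms were −0.61 and −0.36, and with the upper 50% of peaks that of *Map4k4* was 1.28. Without either IL-4 PT/LPS sample 0 genes were called. Of the pathway list, 36 genes were tested in p65. LPS called 11 higher and 4 lower (median 1.3 against 0.86 over all genes), pretreatment 2 and 3, pretreatment under LPS 5 and 2, and the interaction 5 and 1. The TAK1-binding adaptor gene *Tab2* (4.81) and the NF-κB gene *Nfkb1* (0.75) were among those higher with LPS.

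Over regions, the p65 gain at the cascade was wider. Of 154 regions tested, 58 were higher and 7 lower in ctrl/LPS than in ctrl/ctrl (65 called, against 33.3% of all 37564 regions, 29.9% higher and 3.34% lower), with a median of 1.44 against 1.07. By role, higher regions were 22 of 67 for MAP3Ks, 12 of 20 for MAP4Ks, 10 of 30 for MAPKs, 9 of 22 for MAP2Ks, 1 of 7 for MAPKAPKs, and 4 of 8 for the remaining genes. In 55 of the 58 higher regions ctrl/ctrl had no peak, and in 3 of the 7 lower regions the raw scores were higher after LPS and the sign came from centring. The strongest gains were named for *Map4k3*, a kinase gene of the germinal center kinase family, with 8 of its 13 regions higher. A region 34.7 kb upstream of its start site had no peak in ctrl/ctrl, 48.3 and 57.13 in ctrl/LPS, and 39.8 and 40.89 in IL-4 PT/LPS (LPS difference 5.63 ± 0.19, adjusted p = 0.000127). A region 35.0 kb downstream had none, then 52.29 and 36.85, and 70.72 and 78.79 with pretreatment. A region 11.2 kb downstream of the *Mapkapk3* start site had none, then 39.42 and 46.84, and 52.29 and 37.99. All 3 gained p65 with LPS in both samples, with or without pretreatment. *Map3k5* had 5 of 9 regions higher, *Map2k6* 4 of 15, and *Map3k1* 5 higher and 2 lower of 18. The promoter region of *Map4k2* was lower (−1.74 ± 0.22, adjusted p = 0.00209).

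Pretreatment changed p65 under LPS in 37 of the 154 regions, 25 higher and 12 lower, against 28.4% of all regions (23.5% higher and 4.96% lower), and the median was 0.00 against 0.42 over all regions. Higher regions were 10 of 67 for MAP3Ks, 9 of 30 for MAPKs, 3 of 20 for MAP4Ks, and 1 each for MAP2Ks, MAPKAPKs, and the remaining genes. Lower regions were 6 for MAP3Ks, 2 for MAPKs, and 1 for each of the other 4 groups. The number called fell to 13 without IL-4 PT/LPS replicate 1 and to 14 without replicate 2. Sequences of 5 p65 regions are shown, the LPS-dependent one upstream of *Map4k3*, 3 that pretreatment raised, and 1 where pretreatment left no p65 peak. The windows are chr17:80762650-80762949 (*Map4k3*), chr17:28751838-28752137 (*Mapk13*, the p38δ gene), chr13:112003196-112003495 (*Map3k1*), chr7:29007561-29007860 (*Map4k1*), and chr16:87603235-87603534 (*Map3k7cl*), all GRCm38 plus strand with STAT6 and NF-κB matches in capitals.
Map4k3 upstream: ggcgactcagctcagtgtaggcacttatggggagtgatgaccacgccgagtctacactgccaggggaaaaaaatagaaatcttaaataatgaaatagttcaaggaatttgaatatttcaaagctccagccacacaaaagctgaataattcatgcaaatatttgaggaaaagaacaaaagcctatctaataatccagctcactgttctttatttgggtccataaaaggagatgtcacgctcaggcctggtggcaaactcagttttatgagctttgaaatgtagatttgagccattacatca
Mapk13 upstream: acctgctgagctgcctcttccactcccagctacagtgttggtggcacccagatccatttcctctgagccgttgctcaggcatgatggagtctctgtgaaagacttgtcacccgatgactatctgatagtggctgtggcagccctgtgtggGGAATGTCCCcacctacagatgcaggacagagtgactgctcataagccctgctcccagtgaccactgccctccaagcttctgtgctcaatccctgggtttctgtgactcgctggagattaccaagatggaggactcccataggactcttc
Map3k1 far upstream: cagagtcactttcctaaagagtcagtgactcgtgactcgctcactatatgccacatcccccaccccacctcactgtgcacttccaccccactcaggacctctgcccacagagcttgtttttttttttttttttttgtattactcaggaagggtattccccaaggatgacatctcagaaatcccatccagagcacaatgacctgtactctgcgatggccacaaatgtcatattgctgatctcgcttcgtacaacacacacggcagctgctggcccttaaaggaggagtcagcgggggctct
Map4k1 downstream: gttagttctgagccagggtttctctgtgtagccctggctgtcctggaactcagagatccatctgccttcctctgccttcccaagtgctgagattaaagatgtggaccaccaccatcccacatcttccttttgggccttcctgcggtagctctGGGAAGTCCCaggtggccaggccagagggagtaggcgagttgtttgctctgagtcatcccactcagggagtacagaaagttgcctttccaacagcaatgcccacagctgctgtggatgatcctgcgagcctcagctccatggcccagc
Map3k7cl downstream: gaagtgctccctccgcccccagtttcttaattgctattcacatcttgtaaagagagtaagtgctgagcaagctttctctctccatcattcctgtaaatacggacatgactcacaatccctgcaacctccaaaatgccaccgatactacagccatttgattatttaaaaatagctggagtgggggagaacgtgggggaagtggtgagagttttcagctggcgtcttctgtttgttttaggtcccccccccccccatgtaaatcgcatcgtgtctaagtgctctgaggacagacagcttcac
The *Mapk13* window holds an NF-κB match at bases 151 to 160 on the minus strand and the *Map4k1* window one at bases 153 to 162, whereas the *Map4k3* and *Map3k1* windows hold neither motif in these 300 bases. The *Map4k1* window also holds AP-1 letters at bases 202 to 208, and the *Map3k7cl* window at bases 106 to 112. NF-κB matches were found in 17.2% of the 58 cascade regions higher with LPS, against 14.2% of all 11250 such regions and 15.4% of all 51410 p65 regions, and AP-1 letters in 43.1%, against 39.5% and 26.2%. Among the 25 regions that pretreatment raised under LPS, STAT6 matches were found in 12.0% (15.1% of all 8820 such regions), AP-1 letters in 32.0% (28.0%), and NF-κB matches in 16.0% (17.6%). These shares were near those of other regions with the same call.

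**Figure D4:**
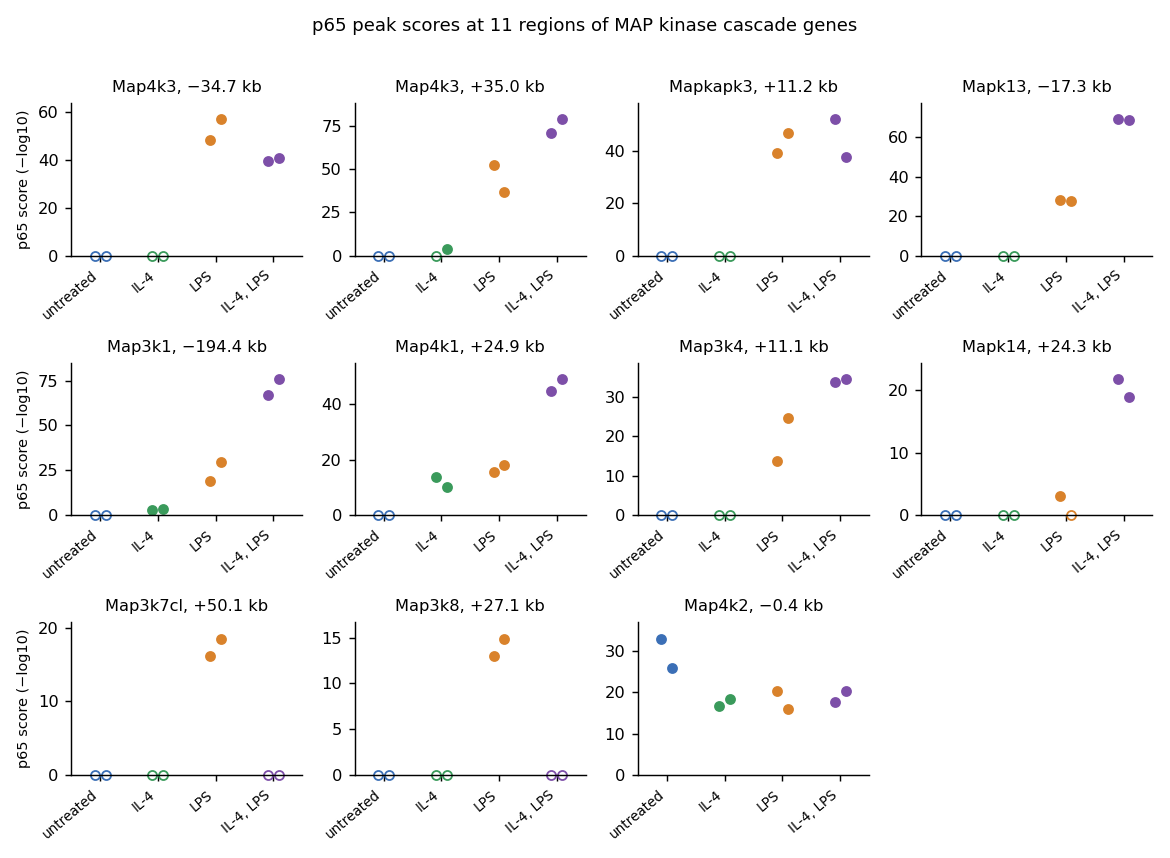
p65 scores (−log10 scale) of 11 regions named for MAP kinase cascade genes in the 4 groups of the LPS experiment, with a symbol for each sample and open circles at 0 where a list had no peak. Regions such as that 17.3 kb upstream of *Mapk13* are highest in IL-4 PT/LPS (69.19 and 68.93), and those of *Map3k7cl* and *Map3k8* have no peak there.

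At the *Mapk13* region, 17.3 kb upstream of the start site, p65 scored 28.39 and 27.57 in ctrl/LPS and 69.19 and 68.93 in IL-4 PT/LPS (1.03 ± 0.18, adjusted p = 0.0102). At the *Map3k1* region, 194.4 kb upstream, it scored 19.19 and 29.43 and then 67.24 and 75.94 (1.32 ± 0.30, adjusted p = 0.0255). At the *Map4k1* region, 24.9 kb from the start site and inside an intron of *Ryr1*, it scored 15.55 and 18.21 and then 44.87 and 49.19 (1.21 ± 0.20, adjusted p = 0.00845). The pretreated samples were above the others in each of the 3. *Mapk14* had a region 24.3 kb into the gene with 3.0 and no peak and then 21.73 and 18.92 (3.24 ± 0.50, adjusted p = 0.00606). In the other direction, a region 50.1 kb downstream of the *Map3k7cl* start site had 16.16 and 18.53 in ctrl/LPS and no peak in IL-4 PT/LPS (−4.03 ± 0.15, adjusted p = 7e-05), and so had a region 27.1 kb downstream of the *Map3k8* start site (12.94 and 14.89, then none; −3.71 ± 0.14, adjusted p = 7e-05). Losses thus stood beside gains. A region 76.1 kb from the *Map2k6* start site went from 22.09 and 14.79 to 8.35 and 7.82 (−1.43), and 1 named for *Mapk13* but lying in a *Mapk14* intron from 23.61 and 22.85 to 17.11 and 16.33 (−0.74).

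Polymerase at these p65 regions is given as scores without a test. At the *Map4k1* region RNAPII-pS2 had 6.56 and 5.51 in ctrl/ctrl, 8.87 and 7.83 in IL-4 PT/ctrl, 6.36 and 6.64 in ctrl/LPS, and 17.21 and 19.95 in IL-4 PT/LPS. At the *Map3k1* region it had 18.92 and 20.94 in ctrl/LPS and 30.23 and 29.61 in IL-4 PT/LPS. Both were highest where p65 was highest. At the *Map3k7cl* region RNAPII-pS2 (29.64 and 25.05) and RNAPII-pS5 (11.92 and 5.51) were listed in ctrl/LPS only, as was p65. At the region upstream of *Map4k3* RNAPII-pS2 had 28.51 and 22.64 in ctrl/LPS and 14.1 and 11.83 in IL-4 PT/LPS. Of the 25 p65 regions that pretreatment raised under LPS, 1 (4.0%) overlapped and 3 (12.0%) lay within 1 kb of a p300 region that was higher after 1 hr of IL-4, against 8.98% and 11.1% of all such p65 regions. Another, named for *Map3k1*, overlapped a p300 region that was lower (4.0%, against 1.77% of all). *Map3k1* and *Map3k12* were among the genes that the 3 near higher p300 were named for, and the p300 and p65 lists came from separate experiments.

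LPS changed elongating polymerase at 10 of the 37 cascade genes tested in RNAPII-pS2, 6 higher and 4 lower, against 25.0% of all genes (11.5% higher and 13.5% lower). The median difference was 0.28, against −0.17 over all genes. *Mapk8*, the JNK1 gene, scored 41.98 and 45.18 in ctrl/ctrl and 15.15 and 12.64 in ctrl/LPS (−1.74 ± 0.26, adjusted p = 0.00564), and 29.13 and 29.62 in IL-4 PT/ctrl and 16.63 and 9.91 in IL-4 PT/LPS. Both LPS groups lay below both groups without LPS. *Map2k6* scored 12.66 and 12.83 in ctrl/ctrl and 38.28 and 39.93 in ctrl/LPS (1.53 ± 0.23, adjusted p = 0.006), and 24.13 and 26.52 in IL-4 PT/LPS. *Map2k2*, an ERK activator gene, scored 25.92 and 22.35 and then 11.6 and 12.03 (−1.11 ± 0.18, adjusted p = 0.00711), and 16.46 and 17.36 in IL-4 PT/LPS. *Mapk6* scored 9.96 and 6.56 and then 26.84 and 24.95 (1.59 ± 0.29, adjusted p = 0.0101). *Map3k7cl* (16.44 and 15.22, then 41.43 and 43.96), *Mapkapk3* (5.44 and 8.97, then 16.97 and 20.46), *Mapk13* (none, then 10.26 and 15.54), and *Map3k15* (none, then 16.26 and 5.96) were also higher, by 1.35, 1.33, 2.80, and 2.44. *Map4k2* (12.92 and 15.15, then 3.91 and 6.59) and *Map3k11* (4.52 and 4.7, then 3.11 and none) were lower, by −1.55 and −1.06. The groups were apart in all 10 genes, which were picked by these values. Over the whole span of *Mapk13* fewer than 2 lists had a peak, too few for a test. Its values are of peaks that bear its name, which therefore lay mostly outside the gene. Over the whole span of *Map3k15*, ctrl/ctrl had 3.08 and 2.99 and ctrl/LPS had no peak, and the gene was called lower (−0.85, limma adjusted p = 0.0322). Its higher call thus rests on peaks that bear its name and lay outside that span. The number of called genes also fell when single samples were left out.

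A limit of naming touches these values. After LPS no RNAPII-pS2 peak was named for *Il1b*, because the peaks over it carried the name of a neighbouring transcript, *Gm14047*, with highest scores of 36.33 and 31.28 in ctrl/LPS. A gene listed without a peak may therefore lie under a peak with another name. Pretreatment alone called 4 cascade genes in RNAPII-pS2, 1 higher and 3 lower, against 14.3% of all genes (7.61% higher and 6.68% lower). *Map3k5* was higher (37.41 and 22.38 in ctrl/ctrl, 55.19 and 54.92 in IL-4 PT/ctrl; 1.07 ± 0.25, adjusted p = 0.0342), and *Map3k4*, *Map3k11*, and *Mapk1ip1* had scores of 4.14 to 8.86 in ctrl/ctrl and no peak in IL-4 PT/ctrl. Over the gene span *Map3k5* had 50.38 and 73.12 in ctrl/ctrl and 55.19 and 95.21 in IL-4 PT/ctrl, so its groups overlapped there. The differences of *Map3k4* and *Map3k11* over the gene span were 0.57 and 0.54, and with intergenic peaks kept that of *Mapk1ip1* was 0.25. Without ctrl/ctrl replicate 1, ctrl/ctrl replicate 2, IL-4 PT/LPS replicate 1, or IL-4 PT/LPS replicate 2 the count was 1, and without IL-4 PT/ctrl replicate 2 it was 2. Under LPS, pretreatment called 1 gene, against 6.55% of all genes (3.81% higher and 2.73% lower). This was *Mapk13*, which had 10.26 and 15.54 in ctrl/LPS and 3.07 and no peak in IL-4 PT/LPS (−2.46 ± 0.53, adjusted p = 0.0443). These peaks bear its name but lay mostly outside the gene, and over the gene span *Mapk13* could not be tested. The call was lost without any sample of ctrl/ctrl, ctrl/LPS, or IL-4 PT/LPS. *Mapk14* scored 31.71 and 20.98 in ctrl/LPS and 7.93 and 11.29 in IL-4 PT/LPS (−1.51 ± 0.37, adjusted p = 0.0602). The interaction called 0 genes with limma, against 5.17% of all genes. Of the 37 genes, 8 had an unadjusted p under 0.05, against 2643 of all 11640 genes. The nearest was *Mapk6* (−1.84 ± 0.41, adjusted p = 0.0535), with 17.29 and 11.47 in IL-4 PT/LPS. Of all genes called by the interaction 51% were higher, and 62% without centring.

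Initiating polymerase fell at more genes than it rose with LPS, in the cascade as over all genes. RNAPII-pS5 called 8 of 34 genes, 1 higher and 7 lower, against 28.3% of all genes (8.17% higher and 20.1% lower), and the median was −0.46 for the cascade and for all genes. *Mapk6* was the higher gene, with 6.26 and 10.16 in ctrl/ctrl, 23.77 and 22.88 in ctrl/LPS (1.79 ± 0.33, adjusted p = 0.0108), and 23.4 and 16.63 in IL-4 PT/LPS. *Mapk8* went from 23.81 and 19.91 to 5.63 and 5.0 (−1.79 ± 0.34, adjusted p = 0.0119). Both MAPK genes thus had the same direction in RNAPII-pS5 and RNAPII-pS2. *Map4k2* went from 13.13 and 13.33 to no peak and 3.95 (−2.25 ± 0.48, adjusted p = 0.0165), *Map2k7*, a JNK activator gene, from 12.14 and 10.57 to none (−2.74 ± 0.69, adjusted p = 0.0296), and *Map3k3* from 6.66 and 12.07 to none (−2.40 ± 0.65, adjusted p = 0.0369). *Mapkapk5* (5.99 and 7.09), *Mapk1ip1* (11.88 and 4.17), and *Map3k8* (8.39 and 14.89, then 3.35 and none) were lower as well. The groups were apart in all 8 genes, which were picked by these values. The LPS lists were the shortest (14476 and 15349 peaks), and the part of list length was not tested. Over the whole gene span, *Map3k8* had a difference of −0.24 (adjusted p = 0.676), and 13 cascade genes were called. Without ctrl/ctrl replicate 1 or replicate 2 the count was 3, and without ctrl/LPS replicate 2 it was 4.

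**Figure D5:**
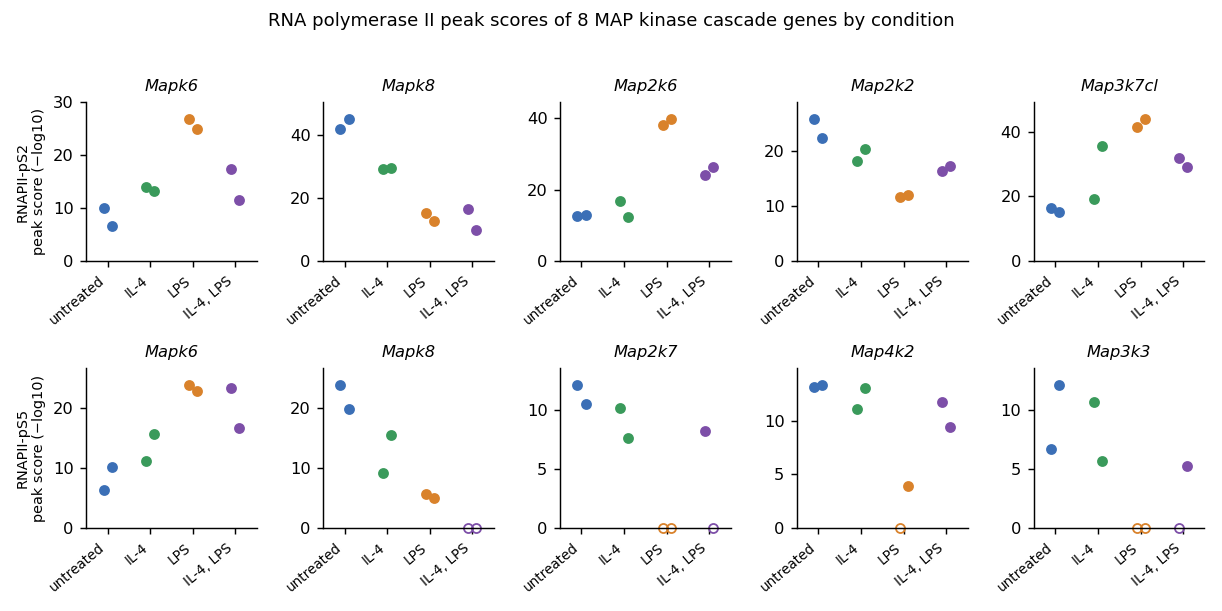
RNAPII-pS2 and RNAPII-pS5 scores (−log10 scale) of 8 genes of the set, in the 4 groups of the LPS experiment, with a symbol for each sample and open circles at 0 where a list had no peak. *Mapk8* is lower and *Mapk6* higher after LPS in both antibodies.

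Pretreatment called few cascade genes in RNAPII-pS5. Without LPS it called 1 gene (7.13% of all genes, 4.17% higher and 2.96% lower), *Mapkapk5*, with 5.99 and 7.09 in ctrl/ctrl and no peak in any other condition (−1.94, adjusted p = 0.0103), and the same peaks gave the only call of the interaction (1.94 ± 0.34, adjusted p = 0.0389, against 4.77% of all genes, 2.82% higher and 1.95% lower). Under LPS it called 2 genes, both lower, against 11.4% of all genes (7.5% higher and 3.9% lower). *Mapk8* had 5.63 and 5.0 in ctrl/LPS and no peak in IL-4 PT/LPS (−1.89 ± 0.34, adjusted p = 0.0222), and *Map3k7cl* had 10.87 and 21.5 and then 7.77 and 5.23 (−1.60 ± 0.39, adjusted p = 0.0491). Apart from *Map3k7cl*, no score behind these calls was above 7.09. The *Mapkapk5* call was lost without any sample of ctrl/ctrl or IL-4 PT/ctrl, the interaction without any 1 of the 8 samples, and the calls under LPS fell to 0 without ctrl/LPS replicate 1, IL-4 PT/LPS replicate 1, or IL-4 PT/LPS replicate 2 and to 1 without ctrl/LPS replicate 2. Of all genes called under LPS 66% were higher, and 81% without centring. Of the pathway list, 37 genes were tested with each polymerase antibody. LPS called 7 higher and 2 lower in RNAPII-pS2 (median 0.26 against −0.17) and 4 higher and 3 lower in RNAPII-pS5 (0.19 against −0.46). The ERK inhibitor gene *Spred2* was higher (2.75 in RNAPII-pS2 and 2.51 in RNAPII-pS5), and *Mknk2*, the gene of a kinase that ERK and p38 activate, was lower (−3.98 and −4.30).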

How the data were processed

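ChIP-seq peaks of 56 BMDM samples were analysed, 2 per group and antibody. According to the labels and the study's methods, the authors aligned reads to mm10 with BWA 0.7.10, called peaks with MACS2 2.0.10, and annotated them with HOMER 4.2 (tools as named in the submitters' processing notes, with SAMtools 0.1.19). The deposited peak score is a −log10 p- or q-value, inferred from the values. For H3K27Ac the deposited value is a normalized tag signal of HOMER regions. No reads were analysed here, so depth is unknown, and 2 samples per group limit precision.

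The gene value was the highest score of a non-intergenic peak named for the gene, and the region value the highest score in peaks merged at an overlap of 1 bp or more. Log2 values were centred on the median of features with a peak in every sample, missing peaks then took the lowest score, and features with a peak in at least 2 samples were tested with limma 3.58.1 (R 4.3.3, trend, Benjamini-Hochberg). Centring before the floor, p300 regions, and the gene span (1 kb either side, GENCODE vM21) were chosen after seeing the data. The p65, RNAPII-pS5, and RNAPII-pS2 fits of the LPS experiment used all 8 samples. Motifs were searched in 300 bp windows with Python 3.11.15. The genes and lists were chosen with earlier results of these data known. Every cascade gene could be named (1 gene is not reported here and enters only the counts), with sample values for up to 10 called genes by adjusted p and for central kinases of each branch. Labels call the 2 samples replicates, and the study describes 2 independent biological replicates. The scripts were tested on simulated data. Replicate numbers did not pair samples (r of deviations between −0.055 and 0.073). Conditions were taken from the labels. Alternatives were another floor, no centring, no filter, summed scores, intergenic peaks kept, the upper 50% of peaks, stricter overlap, a replicate block, only the 2 groups compared, and each sample left out.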

Additional observations from a re-analysis of the deposited data

Results flagged for a closer look

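The interaction term marked 6 results, in which the response to LPS differed between cells with and without IL-4 pretreatment. In p65 the difference of the responses was −3.57 for *Map4k1*, −2.21 for *Map4k4*, 2.60 for *Mapk10*, 3.89 for *Map3k3*, and 3.16 for *Map3k8* on the log2 scale. In RNAPII-pS5 it was 1.94 for *Mapkapk5*. In each of these genes at least 1 of the 4 conditions had no peak in either sample, so the size of the term depends on the floor. With a floor 4 times as high, *Map4k1* was the only one of the 5 p65 genes that was still called.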

How the results depend on the processing

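Of 67 calls at the gene level, 15 held under every alternative, 51 were lost under at least 1, and 13 changed direction under at least 1. Calls that held were H3K27Ac at *Map2k3*, *Map2k6*, *Map3k12*, *Map3k9*, *Map4k4*, *Mapk14*, *Mapk3*, *Mapk6*, and *Mapkapk3*, p300 at *Map3k12*, p65 with LPS at *Map3k4* and *Map4k1*, RNAPII-pS5 with LPS at *Mapk6*, and RNAPII-pS2 with LPS at *Mapk8* and *Map2k2*. Counts of called genes or regions that changed by more than 1.5 times follow, and the cause was not tested. After 1 hr of IL-4, the 5 p300 genes became 1 without centring, 3 with a floor 4 times as high, and 11 with the floor set before centring, and the 41 p300 regions became 0, 24 with no filter, and 65 with the floor set before centring. The 59 H3K27Ac regions became 36 with the higher floor. In p65, the 9 genes of LPS became 19 without centring, and the 65 regions 42 with the upper 50% of peaks. The 5 genes of pretreatment became 0 in a fit of only the 2 groups, 3 with the upper 50% of peaks, and 2 over the gene span. The 3 genes of pretreatment under LPS became 5 without centring, 6 with the upper 50%, and 1 over the gene span, and the 5 genes of the interaction 2 with the higher floor, 2 with the floor before centring, and 2 over the gene span. In RNAPII-pS5, the 8 genes of LPS became 4 with the higher floor, 4 with the upper 50%, and 13 over the gene span. The 1 gene of pretreatment became 0 with the higher floor, 0 with only the 2 groups, 0 with the upper 50%, 2 with intergenic peaks kept, and 4 over the gene span. The 2 genes of pretreatment under LPS became 1 with the higher floor, 1 with no filter, 1 with the floor before centring, 0 with the upper 50%, 6 with intergenic peaks kept, and 4 over the gene span. The 1 gene of the interaction became 0 with no filter, 0 with the floor before centring, 0 with the upper 50%, 2 with intergenic peaks kept, and 4 over the gene span. In RNAPII-pS2, the 4 genes of pretreatment became 2 with the higher floor, 1 with only the 2 groups, and 8 with intergenic peaks kept. The 1 gene of pretreatment under LPS became 0 with the higher floor, no filter, or only the 2 groups, 2 with the floor before centring, the upper 50%, or the gene span, and 3 with intergenic peaks kept. The 0 genes of the interaction became 1 with the higher floor, summed scores, or the upper 50%, and 2 with intergenic peaks kept.

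With each sample left out in turn, called genes ranged from 4 to 23 for p300, 11 to 14 for H3K27Ac, 0 to 3 for HDAC3 (3 without untreated replicate 1), 0 to 1 for RNAPII-pS5 and RNAPII-pS2 in the 1 hr experiment (1 without untreated replicate 1, untreated replicate 2, or IL-4 replicate 2 in RNAPII-pS5, and without untreated replicate 2 in RNAPII-pS2), and 0 to 0 for PU.1, HDAC1, and HDAC2. For LPS, pretreatment, pretreatment under LPS, and interaction they ranged from 8 to 12, 4 to 7, 0 to 4, and 0 to 7 in p65, from 3 to 8, 0 to 1, 0 to 2, and 0 to 0 in RNAPII-pS5, and from 5 to 10, 1 to 4, 0 to 1, and 0 to 0 in RNAPII-pS2. Called regions ranged from 21 to 149 for p300, 43 to 50 for H3K27Ac, 53 to 66 for p65 with LPS, and 13 to 37 for p65 with pretreatment under LPS. A group left with 1 sample was assumed to vary like the others.

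The fit with the replicate number as a block gave 20 p300 regions, 7 p300 genes, 5, 1, and 0 genes for LPS, pretreatment under LPS, and the interaction in RNAPII-pS5, and 0 genes for pretreatment under LPS in RNAPII-pS2. The other counts stayed within 1.5 times under this block. The replicate numbers did not pair the samples (correlations of deviations from −0.055 to 0.073).

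Directions turned as follows. Over the gene span the difference was −0.19 for *Map3k3* in H3K27Ac, −0.44 for *Map3k3* in p300, 0.23 for *Map3k8* in p65 with pretreatment, −0.61 for *Map3k3* and −0.36 for *Map3k8* in the p65 interaction, −0.85 for *Map3k15* in RNAPII-pS2 with LPS, and 0.54 for *Map3k11* and 0.57 for *Map3k4* in RNAPII-pS2 with pretreatment. With intergenic peaks kept it was −0.38 for *Map3k8* in p300, −0.75 for *Mapkapk2* in p65 with LPS, 0.07 and −0.04 for *Map3k8* in p65 with pretreatment and in the interaction, and 0.25 for *Mapk1ip1* in RNAPII-pS2 with pretreatment. With the upper 50% of peaks it was −0.29 for *Map3k8* and 1.28 for *Map4k4* in the p65 interaction, and without centring 0.05 for *Map4k4* in p300. Where peaks elsewhere enter the value, by construction another peak can be the strongest. Of all genes called, the share higher moved without centring from 44% to 58% for RNAPII-pS5 after 1 hr of IL-4. With the floor set before centring it moved from 82% to 56% of p65 genes and from 90% to 57% of p65 regions with LPS, from 80% to 65% of p300 regions, and from 59% to 42% for the RNAPII-pS5 interaction. Scores rise with depth, which is unknown, and a group without peaks has no spread of its own, so small p-values there are not evidence of precision.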
